A study of Mus musculus with 8 samples.

Results

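The translation initiation factors (eIFs) and elongation factors (eEFs) are the proteins that place a ribosome on the start codon of an mRNA and then move it along the coding sequence. Their genes were taken here as every gene whose symbol in the deposited array table starts with Eif or Eef. This gave 65 genes of the 22664 gene symbols in the table, on 64 of its 22206 probe sets, because *Eif3j1* and *Eif3j2* share a row. Besides the factors themselves, the rule takes in the kinases of eIF2, the eIF4E-binding proteins, the kinase and the methyltransferase of eEF2, and *Eefsec*, the factor for selenocysteine. The rule picks genes by name and not by a measured value, though this family was picked with earlier results of these data known. Where a gene had several rows, the row with the highest mean signal was used.

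The study asked what long depletion of MYTHO, a protein its authors linked to autophagy, does to skeletal muscle. The gastrocnemius (GAS) of male C57/Bl6j mice received an adeno-associated virus (AAV) at about 10 weeks of age, and RNA was taken 12 weeks later, at 22 weeks of age. The virus expressed a hairpin (sh-RNA) that targets MYTHO (MYTHO-KD, 4 arrays) or a scramble sequence (scramble, 4 arrays), so the control muscles had been through an injection and a viral transduction as well. Each array, of the Clariom S Mouse type, measured total RNA with a set of short probes for each gene. The hairpin was driven by the U6 promoter, which is active in any transduced cell and not in muscle fibres alone. By the study's methods the opposite leg of a MYTHO-KD mouse received the scramble virus, but the labels do not tie an array to a mouse. The labels do not say in so many words that the 4 arrays of a group came from separate animals, and the p-values given here measure the spread between these arrays.

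In the first stage of translation, eIF2 carries the initiator tRNA to the small ribosomal subunit, eIF1 and eIF1A help it to find the start codon, and eIF3 holds the complex together. The cap of the mRNA is bound by eIF4E, which joins the helicase eIF4A and the scaffold eIF4G unless an eIF4E-binding protein holds it back. During elongation eEF1A brings each aminoacyl-tRNA to the ribosome, the eEF1B complex reloads eEF1A with GTP, and eEF2 shifts the ribosome to the next codon. Skeletal muscle is known for a switch from eEF1A1 to its relative eEF1A2 after birth, and protein synthesis in this tissue is set to a large degree by mTORC1 signaling to the 4E-binding proteins and to S6 kinase.

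The table gives the authors' average and SD of each group on the log2 scale, and no values of single arrays. A difference of 1 on this scale is 2-fold. For this reason the position of single muscles cannot be shown, and the ranges of average ± SD stand in for it. The sh-RNA target, listed as *D230025D16Rik*, had an average of 10.02 ± 0.37 in scramble and 7.71 ± 0.66 in MYTHO-KD (SD, n = 4 arrays each), which left 20.2% of the scramble signal (adjusted p = 0.0138, limma). The 10 skeletal fibre markers looked at had averages from 17.58 to 19.93, so the tissue was muscle in both groups. *Acta1*, *Myh4* and *Atp2a1* stood at 19.93 in both groups, the top of the scale, and can show no difference, so the ratio of the summed signals, 0.992, says little. *Myh1*, a myosin of fast fibres, was the fibre marker with an unadjusted p under 0.05, at 17.58 in scramble and 18.17 in MYTHO-KD (unadjusted p = 0.00873, adjusted p = 0.23, limma). Markers of other cells moved with the groups. All 6 macrophage genes were higher in MYTHO-KD, 4 of them passing an unadjusted p of 0.05 in limma's test. Over all probe sets, 46.9% were higher, and 6.48% were higher at that p. The summed linear signal of the macrophage genes went from 1090 to 3621, with *Cd68* at 6.90 and 9.43 (log2). All 6 fibroblast genes were higher, and their median was 0.77 (log2 fold change). Of these, *Lum* (1.49) and *Col3a1* (1.43) passed that p. The summed signal of all 6, 101883 and 127824, is mostly that of *Dcn* (0.28). All 5 endothelial genes were higher, 2 of them passing that p, with a median of 0.53 and summed signals of 14909 and 21112. Of the 4 genes of regenerating fibres with a row, *Tmem8c*, the myoblast fusion factor also called *Mymk*, was at 5.90 and 7.67. *Myh3* was 1.27 higher and *Myog* 0.21 higher. *Myh8* was at 19.93 in both groups, the top of the scale, and can show no difference. Whether this signal came from *Myh8* alone was not tested. The 5 liver genes were between 4.37 and 8.32 in scramble, and all 5 were higher in MYTHO-KD as well. Their summed signals were 471 and 2230, and 1 of the 5 passed an unadjusted p of 0.05 in limma's test. *Alb* was at 8.32 ± 1.34 in scramble and 10.98 ± 2.28 in MYTHO-KD, a wide spread (unadjusted p = 0.0164, adjusted p = 0.291, limma). The other liver genes were between 4.48 and 6.72 in MYTHO-KD. In bulk muscle, a change in the number of cells of a type and a change in RNA per cell cannot be told apart.

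Differences were tested with limma's moderated test, computed from the deposited averages and SDs. It gave *Eef1a1* as the factor with the largest rise. The sequence before the start of transcription is shown for *Eef1a1* and its relative *Eef1a2*, the closely related genes whose values differed most, and for *Eef1b2* and *Eif3f*, the genes with the next lowest p among those higher in MYTHO-KD. Each is the 250 bases before a start annotated by RefSeq (build GRCm38.p6), 5′ to 3′ on the strand of the gene. Capitals mark a GC box, GGGCGG on either strand.
Eef1a1, chr9:78481725-78481974, minus strand: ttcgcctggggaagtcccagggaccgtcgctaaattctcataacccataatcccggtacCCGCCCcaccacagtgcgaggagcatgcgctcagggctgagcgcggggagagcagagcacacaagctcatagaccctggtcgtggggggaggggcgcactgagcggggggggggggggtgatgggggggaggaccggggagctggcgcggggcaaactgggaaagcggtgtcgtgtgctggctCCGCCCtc
Eef1a2, chr2:181157016-181157265, minus strand: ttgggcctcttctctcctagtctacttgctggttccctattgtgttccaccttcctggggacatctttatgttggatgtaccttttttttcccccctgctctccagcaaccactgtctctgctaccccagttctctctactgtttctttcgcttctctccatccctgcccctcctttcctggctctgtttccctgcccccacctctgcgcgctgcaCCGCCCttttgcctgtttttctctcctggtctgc
Eef1b2, chr1:63176581-63176830, plus strand: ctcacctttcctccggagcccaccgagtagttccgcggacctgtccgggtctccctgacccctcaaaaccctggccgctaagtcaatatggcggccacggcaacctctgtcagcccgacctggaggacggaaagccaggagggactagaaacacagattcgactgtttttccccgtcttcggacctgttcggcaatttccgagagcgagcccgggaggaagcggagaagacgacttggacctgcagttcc
Eif3f, chr7:108934165-108934414, plus strand: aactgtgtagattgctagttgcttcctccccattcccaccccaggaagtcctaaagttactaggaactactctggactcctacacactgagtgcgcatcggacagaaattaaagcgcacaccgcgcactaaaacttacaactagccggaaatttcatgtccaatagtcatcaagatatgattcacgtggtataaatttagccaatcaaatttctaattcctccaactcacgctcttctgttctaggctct
The *Eef1a1* window held 2 GC boxes and a GC content of 68.0%, and the *Eef1a2* window held 1 and 54.0%. The windows of *Eef1b2* (60.4% GC) and *Eif3f* (43.6% GC) held none. A link between this motif and the change in MYTHO-KD was not tested. The *Eif3f* window alone among the 4 held a TATAAA and an E-box of the form CANNTG. The *Eef1a1* start lies inside the interval that the table gives for this gene, 78478449 to 78489151 of chromosome 9, which begins further upstream.

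Promoter windows were in the RefSeq table for 51 of the 65 genes, 66 windows in all. A GC box was in 45 of these 66 windows (68.2%), against 32.7% of all 32851 windows of the same length. The ETS core CGGAAG, searched on both strands like the others, was in 34.8% of the factors' windows and in 13.6% of all windows. TATAAA was in 7.58% against 12.4%, CANNTG in 47.0% against 66.2%, and a MEF2-type pattern (CTA and TAG with 4 bases between) in 3.03% against 3.20%. The factors' windows were thus richer in GC, with a median of 61.4% against 52.4%, and the GC box and the ETS core, which are themselves rich in G and C, were more frequent in them. A match of letters is not a site that a protein was shown to bind.

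Few of the factors differed in level after 12 weeks of MYTHO-KD. Of the 64 probe sets, 29 were higher than in scramble (45.3%, beside 46.9% of all probe sets) and 35 lower (54.7%, beside 51.4%). The median log2 fold change was -0.045, against -0.01 over all 22206 probe sets. Counts within the small role groups below were not tested. The middle of the distribution, from the lower to the upper quartile, ran from -0.232 to 0.14, and 32 of the 64 (50.0%) lay within 0.2 of zero, against 55.3% of all probe sets. With limma's unadjusted p under 0.05, 5 factors were higher in MYTHO-KD (7.81%), beside 6.48% of all probe sets. At the same p, 4 were lower (6.25%), beside 5.52% of all. Both shares lie near the background, so the number of factors passing this p is not in itself a result about them. Each of the 64 was marked as expressed in both groups, but so were 21222 of all 22206 probe sets, so this mark says little. The median SDs of the factors were 0.22 in scramble and 0.255 in MYTHO-KD, against 0.27 in both groups over all probe sets. The 95% interval of a difference reached a median of 0.415 to either side, and how small a shift could pass the test depended on the spread of each factor.

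**Figure D1:**
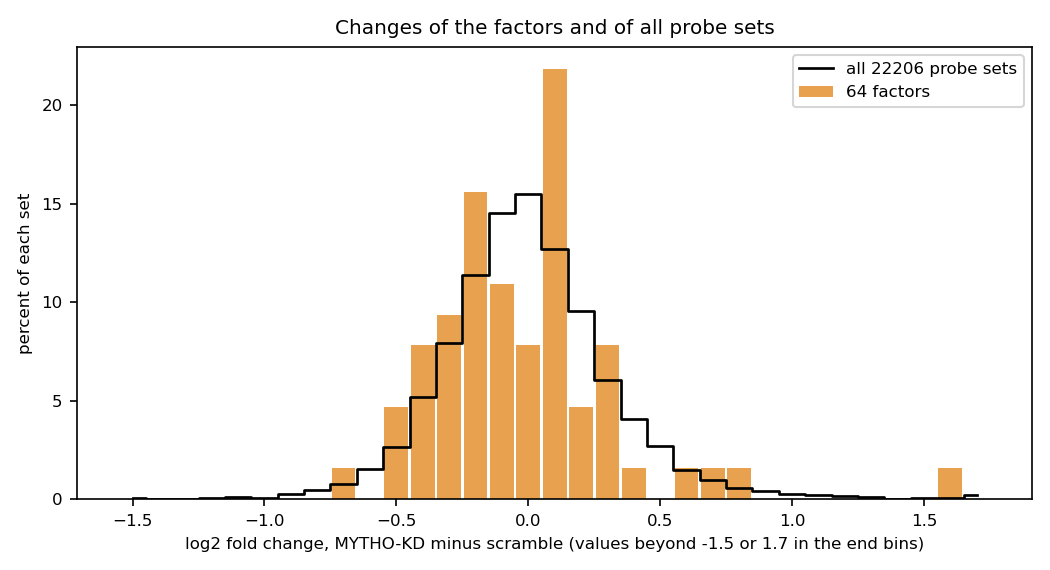
Log2 fold change of MYTHO-KD against scramble (x axis) for the 64 probe sets of the translation factors (bars) and for all 22206 probe sets (line), each as a percent of its own set (y axis). Each factor lies within the range of all probe sets, -3.12 to 3.79, and values beyond the axis are drawn in its end bins. The bar at the far right is *Eef1a1* at 1.63.

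With the study's own call, a 2-fold change and an unadjusted p under 0.05, 1 factor was higher and 0 were lower. That is 1.56% of the factors for the higher call, beside 0.86% of all probe sets, and for the lower call the share of all probe sets was 0.257%. After the p-values of all probe sets were adjusted by Benjamini-Hochberg, 1 factor was higher at an adjusted p under 0.05, beside 0.18% of all probe sets. None was lower, although 4 had an unadjusted p under 0.05 (limma), and 0.0946% of all probe sets passed in that direction. *Eef1a1* was the gene called each time, and it was the 47th largest rise and the 7th lowest p of the whole table. As a plainer measure of separation, the averages of the groups lay further apart than the sum of both SDs in 7 factors (10.9%), beside 7.99% of all probe sets. These were *Eef1a1*, *Eef1b2*, *Eif3h*, *Eif2s2*, *Eif4e*, *Eif2a* and the shared row of *Eif3j1* and *Eif3j2*.

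*Eef1a1* encodes the form of eEF1A that most cells use to deliver aminoacyl-tRNA. Its average was 16.12 ± 0.19 in scramble and 17.75 ± 0.31 in MYTHO-KD (SD, n = 4 arrays each). The ranges of average ± SD lay far apart. The log2 fold change was 1.63 (standard error 0.191, 95% interval 1.21 to 2.05), which is 3.10-fold, and it passed the adjustment (adjusted p = 0.00684, limma). This adjusted p rests on the moderation of variances, since it was 0.105 from the plain pooled variance and 0.268 with unequal variances, and ran from 0.000344 to 0.268 over 8 alternatives, while the unadjusted p was at most 0.000295. The gene is known to have near-identical processed copies in the genome. Whether its probe set also detects RNA of such copies was not tested, and probe sequences were not looked at here.

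*Eef1a2*, the eEF1A of mature muscle fibres, neurons and heart, showed no such difference. Its average was 16.64 ± 0.07 in scramble and 16.61 ± 0.31 in MYTHO-KD, a log2 fold change of -0.03 with an interval from -0.42 to 0.36 (unadjusted p = 0.871, limma). A rise of the size seen for *Eef1a1* lies outside that interval. The fold changes of this pair differed by 1.66 and their intervals did not overlap, whereas a direct test of that difference needs single arrays and was not run. The higher levels of macrophage, fibroblast, endothelial and fusion markers given above went along with the rise of *Eef1a1*, and their part in it was not tested.

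**Figure D2:**
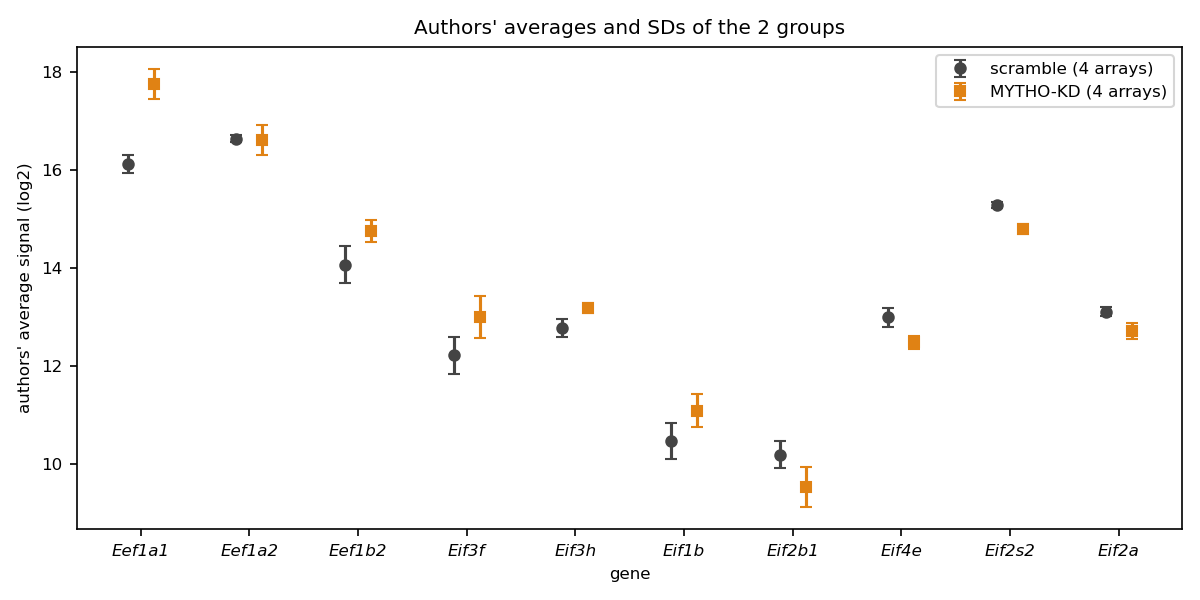
The authors' average signal (y axis, log2) of the 9 factors with an unadjusted p under 0.05 and of *Eef1a2*, in scramble (circles) and MYTHO-KD (squares), with bars of 1 SD over 4 arrays per group. The bars of *Eef1a1* are far apart (16.12 and 17.75), those of *Eef1a2* overlap, and the 4 genes at the right are lower in MYTHO-KD.

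The eEF1B complex exchanges GDP for GTP on eEF1A. Its catalytic alpha subunit is encoded by *Eef1b2*, which was at 14.07 ± 0.37 in scramble and 14.75 ± 0.23 in MYTHO-KD, 1.60-fold higher (log2 fold change 0.68, interval 0.22 to 1.14, unadjusted p = 0.00714, adjusted p = 0.212, limma). The difference was larger than the sum of both SDs, but it did not pass the adjustment. The other subunits gave values close to zero, 0.16 for *Eef1g* (15.65 and 15.81) and -0.02 for *Eef1d* (14.56 and 14.54), with intervals from -0.27 to 0.59 and from -0.39 to 0.35. *Eef1e1*, a small protein of the aminoacyl-tRNA synthetase complex despite its name, was 0.12 higher, with SDs of 0.39 and 0.38.

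Around eEF2 no gene passed the test, although all 4 values were below zero, with a median of -0.355. Over all probe sets, 51.4% were below zero, and 6.48% were higher and 5.52% lower at an unadjusted p under 0.05. *Eef2* itself, the translocation factor, was at 17.29 ± 0.14 in scramble and 17.24 ± 0.29 in MYTHO-KD, a log2 fold change of -0.05 with an interval from -0.45 to 0.35. *Eef2k*, the kinase that inactivates eEF2, was at 11.97 ± 0.15 and 11.58 ± 0.32, a log2 fold change of -0.39 (interval -0.80 to 0.02, unadjusted p = 0.0617, limma). The lower level of this kinase was therefore just short of the threshold on an unadjusted p, and it was short of it in each of 8 alternatives (lowest unadjusted p 0.0502). *Eef2kmt*, which methylates eEF2, gave -0.33 from the dimmest signal of all the factors (5.18 and 4.85), and *Eefsec*, which brings selenocysteine to the ribosome, gave -0.38.

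Of the 5 genes of the eIF1 group, 1 passed the unadjusted test and was higher, as were 6.48% of all probe sets. *Eif1b*, a close relative of the start codon factor *Eif1*, was at 10.47 ± 0.37 in scramble and 11.09 ± 0.33 in MYTHO-KD, 1.54-fold higher (log2 fold change 0.62, interval 0.13 to 1.11, unadjusted p = 0.018, adjusted p = 0.303, limma). Here the ranges of average ± SD met, and the adjustment was not passed. *Eif1* had a log2 fold change of 0.23 (interval -0.14 to 0.60), an interval that overlaps that of *Eif1b*. The genes for eIF1A, *Eif1a* and *Eif1ax*, gave -0.25 and -0.09, and *Eif1ad*, a gene with an eIF1A-type domain, gave -0.10.

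In the eIF2 group, 2 of 6 genes were lower at an unadjusted p under 0.05, beside 5.52% of all probe sets. At that p 0 were higher, beside 6.48% of all, and the median of the group was -0.225. *Eif2s2*, the beta subunit of eIF2, was at 15.28 ± 0.06 in scramble and 14.79 ± 0.10 in MYTHO-KD, or 71.2% of scramble (log2 fold change -0.49, interval -0.81 to -0.17, unadjusted p = 0.00607, adjusted p = 0.202, limma). Its SDs were among the smallest of the factors, and the gap was 3.06 times the sum of both SDs. *Eif2a*, which is not a subunit of eIF2 but an initiator tRNA carrier for particular start sites, was at 13.11 ± 0.10 and 12.71 ± 0.16, or 75.8% of scramble (log2 fold change -0.40, interval -0.74 to -0.06, unadjusted p = 0.0252, adjusted p = 0.334, limma). Neither passed the adjustment. *Eif2s1*, the alpha subunit whose phosphorylation slows initiation, was at 10.92 ± 0.15 and 10.96 ± 0.14, a log2 fold change of 0.04 (interval -0.31 to 0.39). The gamma subunit genes on the X and Y chromosomes gave -0.29 (*Eif2s3x*) and -0.16 (*Eif2s3y*), and *Eif2d*, another tRNA carrier, gave 0.13, so lower values were not shared by every gene of the group.

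eIF2B is the exchange factor that recycles eIF2 and is blocked when eIF2 alpha is phosphorylated. Of its 5 subunit genes, 4 had values below zero, beside 51.4% of all probe sets. Of the 5, 1 was lower at an unadjusted p under 0.05, beside 5.52% of all, and the median was -0.36. *Eif2b1*, the alpha subunit, was at 10.19 ± 0.28 in scramble and 9.53 ± 0.41 in MYTHO-KD, or 63.3% of scramble (log2 fold change -0.66, interval -1.15 to -0.17, unadjusted p = 0.013, adjusted p = 0.268, limma). This was the most negative value of all the factors, yet the ranges of average ± SD met. *Eif2b3* gave -0.48 and *Eif2b2* gave -0.36, both with an interval that included zero (unadjusted p = 0.0925 and 0.0909, limma). The catalytic epsilon subunit *Eif2b5* was at 6.48 ± 0.34 and 6.38 ± 0.26, a log2 fold change of -0.10 (interval -0.55 to 0.35), and *Eif2b4* gave 0.07.

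None of the 4 eIF2 kinases passed the test, beside 6.48% of all probe sets higher and 5.52% lower at an unadjusted p under 0.05. All 4 values lay within 0.2 of zero, as did 55.3% of all probe sets. *Eif2ak3*, which encodes the endoplasmic reticulum stress sensor PERK, was at 8.56 ± 0.08 in scramble and 8.69 ± 0.44 in MYTHO-KD, a log2 fold change of 0.13 (interval -0.33 to 0.59). The MYTHO-KD arrays were more spread for this gene than the scramble arrays. The sensors of heme lack (*Eif2ak1*), double-stranded RNA (*Eif2ak2*) and amino acid lack (*Eif2ak4*) gave -0.20, 0.14 and 0.09. Kinase activity and phosphorylation of eIF2 are not seen in mRNA levels.

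The 13 probe sets of eIF3 divided into 7 above and 6 below zero, with a median of 0.07. The genes passing the unadjusted test were 2, both higher, as were 6.48% of all probe sets, and they encode the subunits with an MPN domain. *Eif3f*, known in muscle as a target of the atrophy ubiquitin ligase MAFbx, was at 12.22 ± 0.38 in scramble and 13.00 ± 0.42 in MYTHO-KD, 1.72-fold higher (log2 fold change 0.78, interval 0.24 to 1.32, unadjusted p = 0.00818, adjusted p = 0.224, limma). After *Eef1a1* this was the largest positive value among the factors, but the spread was large and the ranges of average ± SD met. *Eif3h* was at 12.78 ± 0.18 and 13.19 ± 0.10, 1.33-fold higher (log2 fold change 0.41, interval 0.06 to 0.76, unadjusted p = 0.0243, adjusted p = 0.329, limma), a smaller difference with ranges that did not meet. *Eif3a*, the largest subunit and a core of the complex, was at 9.41 ± 0.41 and 9.16 ± 0.27, a log2 fold change of -0.25 (interval -0.74 to 0.24). The other eIF3 probe sets ran from -0.25 (*Eif3l*) to 0.32 (*Eif3d*), and the shared row of *Eif3j1* and *Eif3j2*, the loosely bound subunit, gave -0.22 with SDs of 0.12 and 0.06.

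**Figure D3:**
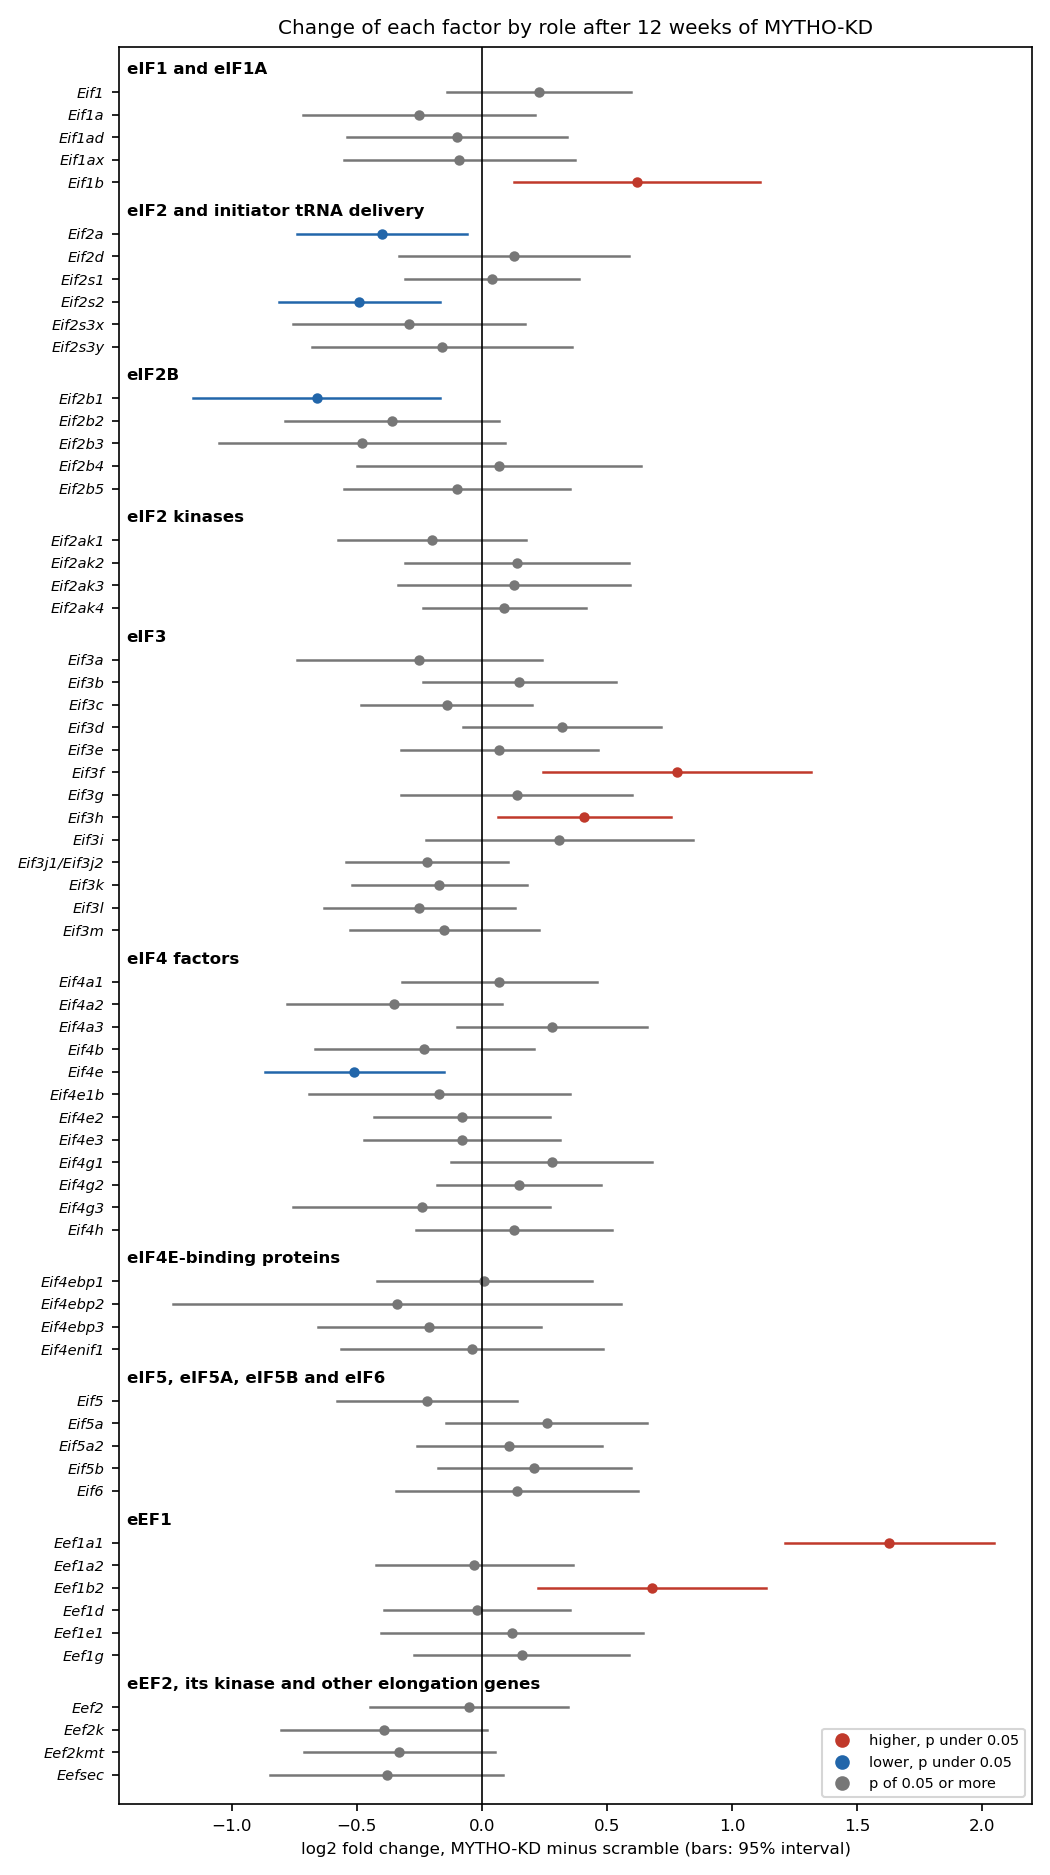
Log2 fold change of each of the 64 probe sets (x axis, MYTHO-KD minus scramble, points with bars of the 95% interval from limma's test), grouped by role. Colours mark an unadjusted p under 0.05, with 5 factors higher and 4 lower, and all but *Eef1a1* lie between -0.66 and 0.78.

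Among the 12 eIF4 factors, *Eif4e* alone passed the unadjusted test and was lower, as were 5.52% of all probe sets. The mRNA of this cap-binding protein was at 12.99 ± 0.19 in scramble and 12.48 ± 0.14 in MYTHO-KD, or 70.2% of scramble (log2 fold change -0.51, interval -0.87 to -0.15, unadjusted p = 0.00921, adjusted p = 0.234, limma). The ranges of average ± SD did not meet, and the adjustment was not passed. Its relatives *Eif4e2* and *Eif4e3* both gave -0.08, and *Eif4e1b*, which is known mainly from germ cells, gave -0.17, each with an interval overlapping that of *Eif4e*. The scaffold *Eif4g1* was at 15.35 ± 0.18 and 15.63 ± 0.28, a log2 fold change of 0.28 (interval -0.12 to 0.68), while *Eif4g2* and *Eif4g3* gave 0.15 and -0.24. The helicase *Eif4a1* was at 11.68 ± 0.19 and 11.75 ± 0.24, a log2 fold change of 0.07 (interval -0.32 to 0.46). *Eif4a2*, which encodes a related helicase, was at 9.58 ± 0.31 and 9.23 ± 0.23, a log2 fold change of -0.35 (interval -0.78 to 0.08). Its row also names the small nucleolar RNAs *Snord2* and *Snora81*. *Eif4a3*, a part of the exon junction complex, gave 0.28, and the helicase helpers *Eif4b* and *Eif4h* gave -0.23 and 0.13.

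The 4 eIF4E-binding genes gave no call, beside 6.48% of all probe sets called higher and 5.52% lower at an unadjusted p under 0.05. *Eif4ebp1*, the best known mTORC1 substrate that binds eIF4E, was at 9.66 ± 0.16 in scramble and 9.67 ± 0.35 in MYTHO-KD, a log2 fold change of 0.01 (interval -0.42 to 0.44). *Eif4ebp2* was at 11.16 ± 0.73 and 10.82 ± 0.80, the largest SDs of any factor, and its log2 fold change of -0.34 had an interval from -1.24 to 0.56. A 2-fold lower level lies within that interval. *Eif4ebp3*, whose row also names *Ankhd1*, gave -0.21, and *Eif4enif1*, which carries eIF4E into the nucleus, gave -0.04. mTORC1 acts on these proteins by phosphorylation, which arrays do not measure.

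The last group holds factors of ribosomal subunit joining, together with eIF5A. *Eif5a*, the hypusine-bearing factor that helps the ribosome through difficult stretches, was at 16.60 ± 0.12 in scramble and 16.86 ± 0.31 in MYTHO-KD, a log2 fold change of 0.26 (interval -0.14 to 0.66). *Eif6*, which keeps the large subunit apart until it is needed, was at 9.14 ± 0.48 and 9.28 ± 0.03, a log2 fold change of 0.14 (interval -0.34 to 0.62). *Eif5*, *Eif5b* and *Eif5a2* gave -0.22, 0.21 and 0.11. None of the 5 passed the test, beside 6.48% of all probe sets higher and 5.52% lower at an unadjusted p under 0.05. The *Eif6* difference was well within the spread of the scramble arrays.

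In all, 10 pairs of closely related factors were set side by side. The 95% intervals overlapped in 9 of them, among them *Eif1b* and *Eif1*, *Eif4a1* and *Eif4a2*, *Eif4g1* and *Eif4g3*, *Eif2s3x* and *Eif2s3y*, and *Eif5a* and *Eif5a2*. *Eef1a1* and *Eef1a2* were the pair whose intervals lay apart. An overlap of intervals does not show that the genes of a pair moved alike.

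**Figure D4:**
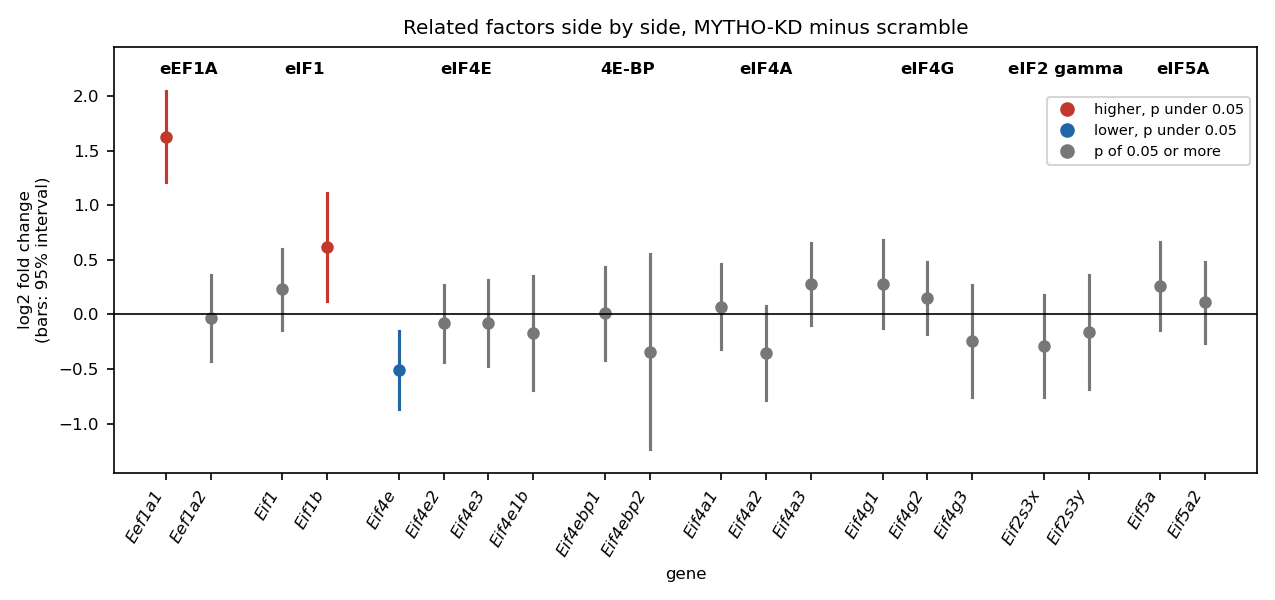
Log2 fold change of closely related factors side by side (y axis, MYTHO-KD minus scramble, bars of the 95% interval from limma's test). *Eef1a1* at 1.63 lies apart from *Eef1a2* at -0.03, and within each of the other groups the intervals overlap.

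A list of 45 genes that act on or beside these factors was read in the same fit. It holds poly(A)-binding proteins, mTORC1 components and S6 kinases, eIF4E kinases, eIF2 phosphatase subunits, hypusine and diphthamide enzymes, release and rescue factors, and the mitochondrial translation factors. Of the 45, 3 were higher at an unadjusted p under 0.05 (6.67%, beside 6.48% of all probe sets) and 0 were lower (beside 5.52%), with a median of 0.05. *Mknk2*, a kinase that phosphorylates eIF4E, was at 12.36 ± 0.19 in scramble and 13.00 ± 0.11 in MYTHO-KD (log2 fold change 0.64, unadjusted p = 0.00191, adjusted p = 0.139, limma). *Tufm*, the mitochondrial elongation factor that corresponds to eEF1A, was at 9.14 ± 0.46 and 9.82 ± 0.19 (log2 fold change 0.68, unadjusted p = 0.0111, adjusted p = 0.254, limma). *Mtrf1l*, a mitochondrial release factor, gave 0.43 (unadjusted p = 0.0439, adjusted p = 0.401, limma). None of the 3 passed the adjustment. Of the mTORC1 pathway, named here because the study followed it, *Mtor* gave 0.38 (interval -0.27 to 1.03), its partners *Rptor* and *Mlst8* gave 0.32 and -0.33, and its activator *Rheb* gave -0.02. The S6 kinases *Rps6kb1* and *Rps6kb2* gave 0.15 and 0.33, and *Rps6*, the ribosomal protein they phosphorylate, gave 0.12. Each of these 7 intervals included zero.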

How the data were processed

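Total RNA of 8 GAS muscles (4 MYTHO-KD, 4 scramble, grouped by the labels) was hybridised to Clariom S Mouse arrays. The authors normalised the signals by SST-RMA in the Transcriptome Analysis Console, per their methods, while the submitters' processing notes name Affymetrix Expression Console, RMA and build mm10. The deposited table of 28 columns holds, for each of 22206 probe sets, a log2 average per group, rounded to 2 decimals, and its SD. The kind of average is not stated, and if it is not a plain mean the p-values here are approximate. SST-RMA widens the range of low signals, so the size of a fold change depends on it. The table also holds the authors' own test (a fold change, a p-value and an FDR), which was not used. No single arrays were in the table analysed (0 such columns unused).

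Limma 3.58.1 in R 4.3.3 gave a moderated test from the averages and SDs over all probe sets (6 residual degrees of freedom, squeezeVar prior SD 0.284 with 5.847 degrees of freedom), with two-sided p-values and Benjamini-Hochberg adjustment. The script was tested on simulated data. Where a gene had several rows, that of the highest mean was used, which left out an *Eif3j2* row (log2 fold change -0.11). Named in full are factors with an unadjusted p under 0.05, the largest changes, and a list of core factors. The gene family, the gene lists and the tests were chosen with earlier results of these data known. Motifs were searched in RefSeq windows of GRCm38.p6. Alternatives varied moderation, the variance prior, equal variances, a filter on dim probe sets, centring, the choice of rows and the threshold. Arrays have no sequencing depth, and their number limits the precision.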

Additional observations from a re-analysis of the deposited data

How the results depend on the processing

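No paired analysis was possible because the table analysed gives group averages and not single arrays, and leaving out each array in turn was not run for the same reason. All 23 factors named by rule kept their direction and their side of an unadjusted p of 0.05 in each of 8 alternatives (*Eif4a2* has no row in the setting of rows with 1 symbol). The 9 factors called were the same in 6 refits, with the shared *Eif3j1* and *Eif3j2* row added to the lower ones (5) without moderation and with unequal variances. At an adjusted p under 0.05 the 5 higher factors became 1 and the 4 lower ones 0. At 1.5-fold with an unadjusted p under 0.05 the lower ones became 1 (higher 4). At 2-fold whatever the p, chosen after seeing the data, 1 was higher and 0 were lower. The count of factors with an adjusted p under 0.05, 1 in the reported fit, was 0 without moderation and 0 with unequal variances. In these settings the adjusted p of *Eef1a1* was 0.105 (t-test with pooled variance) and 0.268 (Welch's t-test). There, 2 of all probe sets passed that threshold in either setting, against 61 with moderation. A filter to probe sets expressed in both groups was also added after seeing the data. The median of the factors stayed between -0.05 and -0.03 in the settings run. Signals near the floor of the scale, as for *Eef2kmt*, can hide a fall.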
